A study of Mus musculus with 18 samples.

Results

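The transcripts of 37 genes of the DNA damage response and of DNA repair were followed through single mouse oocytes. The genes were chosen by mouse symbol, through the GENCODE vM21 annotation, from 47069 gene identifiers in the deposited tables. They cover damage signalling (8 genes), homologous recombination (9), the single-strand binding complex replication protein A (3), end joining (4), base excision repair and nick ligation (6), nucleotide excision repair (3), mismatch repair (2) and the Fanconi pathway (2). A filter on low counts kept 35 of them, and Prkdc and Ogg1 did not pass it. The rule uses symbols alone, but the list was drawn up with earlier results of these data known.

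Each library was made from a single oocyte of the mouse strain C57BL/6JAusb, either a germinal vesicle (GV) oocyte, which is immature and still has its nucleus, or a metaphase II (MII) oocyte, the mature egg. The 6 groups were GV and MII oocytes of young controls aged 4 weeks, of aged controls of 12 months, and of mice of 12 months whose drinking water held nicotinamide mononucleotide (NMN, from which cells make NAD) at 2 g/L for 4 weeks. Both kinds of control drank water without NMN, and no genotype other than the strain was labelled. The comparisons ask how age, NMN in aged animals and maturation from GV to MII go with transcript levels.

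There were 16 oocytes, 2 from GV young controls, 2 from GV aged controls, 3 from the GV NMN group and 3 from each MII condition. The labels name no animals, so oocytes of a group may share a mother and each group stands as 1 sample. No test between groups is therefore given, and all values describe these oocytes. Levels are CPM, counts brought to a common library total and scaled between libraries, given per oocyte or as the mean ± SD between oocytes. A gene was called higher or lower where the log2 ratio of group means, after adding 1 CPM, was at least 1 in size (2-fold) and the oocytes of the groups did not overlap. The share of all 12161 genes kept that met the same rule is printed as the background of each count. Folds are plain ratios of the means, and where a group had no count they are lower bounds set against 3 counts over that group.

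When DNA is broken or replication stalls, the kinases ATM and ATR start a signal that CHK1 and CHK2 carry to the cell cycle machinery and to the p53 family. Breaks are then repaired by homologous recombination, which copies an intact strand, or by joining of the ends, while damaged or mismatched bases are cut out by the excision and mismatch pathways. Oocytes rely on this network during their long arrest, and p63 is known to remove damaged oocytes of the ovarian reserve in mice. Transcription stops before the oocyte matures, so the MII egg holds transcripts made earlier, many of which are degraded or have their tails lengthened during maturation.

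Library totals ran from 2756181 to 5586894 counts, so that 3 counts, the floor used here, equalled 0.537 to 1.09 CPM before scaling. Counting error is all that the intervals and floors take in. All GV oocytes expressed the 9 oocyte markers, with sums of 5868 to 18680 CPM, and the sums in MII oocytes were 1180 to 20970 CPM. The sum of 12 cumulus and granulosa markers had a range of 10.1 to 69.3 CPM at the GV stage and of 0 to 299.7 CPM at the MII stage, with Foxl2 and Amh at 0 in every oocyte. The sum of 7 immune markers reached 237 CPM in GV and 42.9 CPM in MII oocytes, most of it C1qb, with Ptprc, C1qa and Cd3e at 0 in every oocyte. MII NMN 1 and 2 and MII young control 1 stood apart, since 43.0%, 33.2% and 24.4% of their counts were mitochondrial against 2.76 to 12.6% in the other 13 oocytes.

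Rpa3 and Chek1 had the highest levels among the repair genes in both stages. On the length-corrected TPM scale, Rpa3, the smallest subunit of replication protein A, had the highest median level, 401 TPM in GV and 362 TPM in MII oocytes. Chek1, the kinase CHK1, was next with medians of 75.1 TPM in GV and 259 TPM in MII oocytes. At the GV stage Xrcc5 (44.9 TPM), Brca2 (37.5 TPM), Rad50 (34.9 TPM) and Lig1 (30.1 TPM) followed. At the MII stage the order was Brca2 (97.1 TPM), Rad50 (68.7 TPM) and Lig1 (42.4 TPM), and Xrcc5 had moved down to place 12 of 37. The ranges over oocytes overlapped between neighbours in these orders, except that Rpa3 lay above Chek1 in GV oocytes. Median levels reached 10 TPM for 14 members in GV and 10 in MII oocytes, and were under 1 TPM for 9 and 15 members.

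The low end held several well known regulators. Prkdc, the catalytic subunit of the DNA-dependent protein kinase, had counts in 8 of 16 oocytes. It reached 22.2 CPM in GV young control 2-2, and was at or under 1.80 CPM in every other oocyte. Ogg1, the glycosylase of oxidised guanine, was at most 2.17 CPM, and Chek2, the kinase CHK2, had counts in 7 of 16 oocytes. Only 6 members had a count in all 16 oocytes, and these were Rpa3, Chek1, Xrcc5, Brca2, Rad50 and Trp53bp1.

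**Figure D1:**
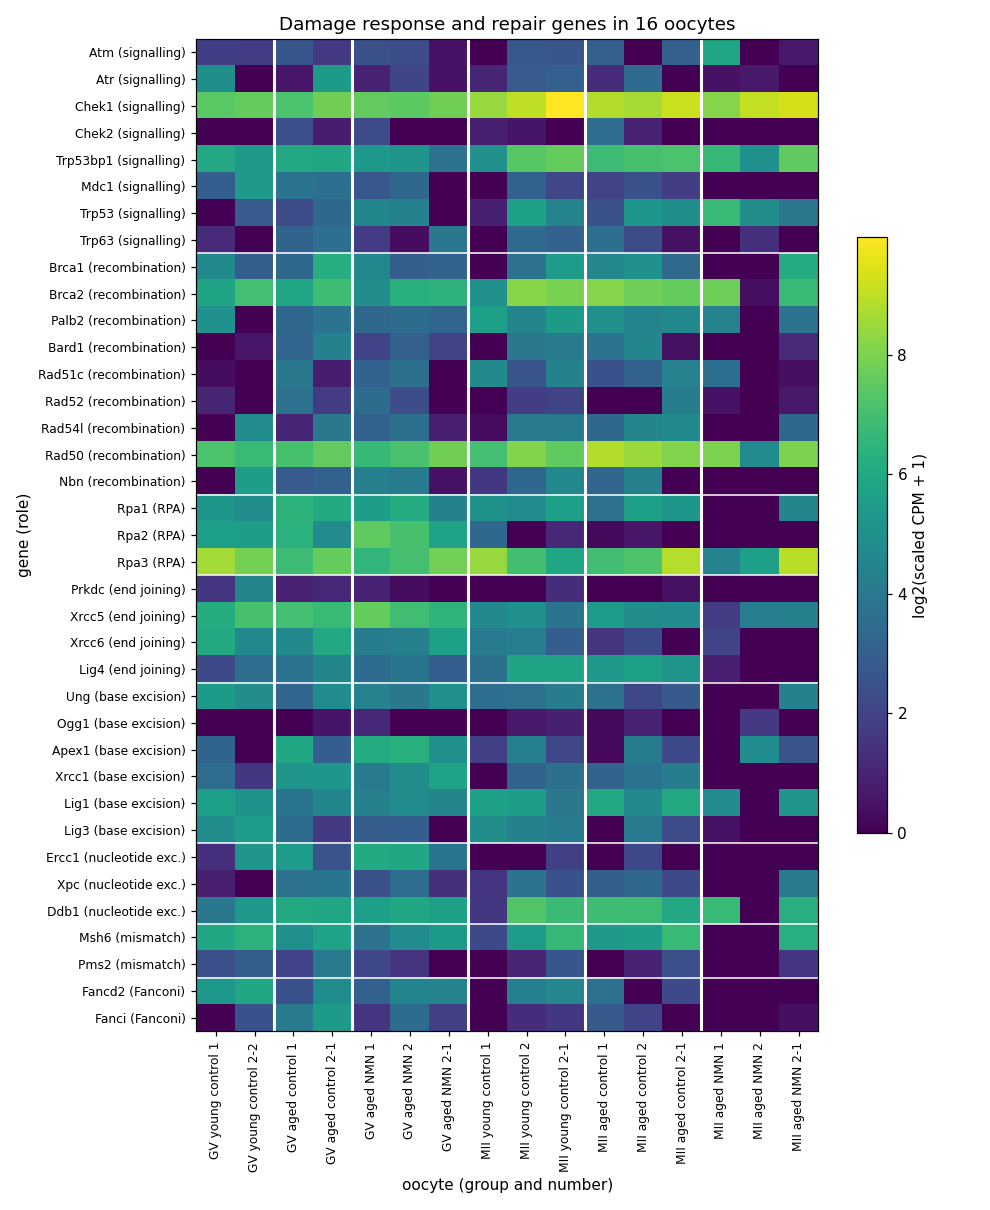
Level of each of the 37 repair genes (rows, grouped by role) in each of the 16 oocytes (columns, grouped by stage and condition), as log2 of scaled CPM after adding 1 CPM. Chek1 is high in every oocyte, Rpa2 is seen in all 7 GV oocytes and is at most 9.41 CPM in the MII oocytes, and the MII NMN oocytes have the most members without a count.

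Chek1 was higher and Rpa2, Xrcc5 and Xrcc6 were lower in mature eggs than in GV oocytes of all 3 conditions. The maturation comparisons in young controls, aged controls and NMN oocytes share no oocyte. In them 22 of 35 members were called at least once (62.9%, against 61.3% of all genes kept), a share near the background. In all 3 comparisons 5 members were called (14.3% against 9.43%), which were Chek1 (higher in MII each time), Rpa2, Xrcc5 and Xrcc6 (lower each time) and Lig4 (higher in both controls, lower with NMN). The counts were 4 higher and 5 lower of 35 in young controls (11.4% and 14.3%, background 16.6% and 15.4%). In aged controls 7 were higher and 8 lower (20% and 22.9%, background 8.32% and 25.9%), and with NMN 1 was higher and 11 were lower (2.86% and 31.4%, background 3.34% and 26.8%). The lower counts were thus near the background in all 3 conditions. The library was made from the supernatant of an oocyte whose nucleus had been pelleted, per the labels, and an MII egg has no nucleus. A lower level in the egg and a different recovery of transcripts therefore cannot be told apart, nor can less RNA per oocyte, since CPM are shares of a library.

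The sequences below are from the 3′ UTRs of 4 members with a higher call and of Rpa2 with a lower call at maturation. They were picked after the values were seen and are not those with the largest ratios. They come from the GENCODE vM21 transcripts (GRCm38), on the transcript's own strand, and are windows of 30 bases around the cytoplasmic polyadenylation element nearest the end. The element was searched as TTTTAT or TTTTAAT, with the overlap of both allowed, on the sense strand, and is the letters in capitals. The poly(A) signal words AATAAA and ATTAAA are in capitals too, wherever they fell in a window. Lig4 had no such word in its last 60 bases, so the capitals ATTAAA there do not mark its end.
Chek1: gctcaagtatgtTTTTAATtttttgtgtat
Brca2: ctacaactatcaTTTTATatacaaAATAAA
Lig4: atgaATTAAAagTTTTATaattttcctact
Trp53bp1: gcgcTTTTATctTTTTATctcgtcatttct
Rpa2: ctgaaatgttggTTTTATttttagcgctta
Chek1, Brca2, Lig4 and Trp53bp1 are members called higher in MII than in GV oocytes of at least 1 control group, and Rpa2 was called lower. The 3′ UTR of Chek1 held 6 such elements, that of Lig4 6, that of Trp53bp1 8, and those of Brca2 and Rpa2 1 each. The element nearest the end began 39 bases from it in Brca2, the only member shown with an element in the last 100 bases. It began 251 bases from the end in Rpa2, 262 in Chek1, 600 in Lig4 and 804 in Trp53bp1. Of the other members called higher at maturation, Rad51c held 3 and Xpc 2, and Rad50, Palb2 and Lig1 held none. Of the others called lower, Bard1 held 11, Rpa1 4, and Mdc1 and Fancd2 1 each. Xrcc5, Xrcc6, Ercc1, Fanci, Xrcc1, Apex1, Nbn and Ung, also called lower, held none. Of the members kept, 33 had an annotated 3′ UTR of at least 100 bases, and 6 of these held the element within the last 100 bases (18.2%) against 20.3% of 10102 such genes kept. Anywhere in the 3′ UTR the share was 57.6% against 63.7%, and the median 3′ UTR was 660 bases against 1052. The members as a list thus held the element about as often as other genes did, and a match describes letters only.

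Chek1 carried the clearest difference of the signalling genes. It lies at 36708482 to 36727065 on the minus strand of chromosome 9 (GRCm38). CHK1 is the kinase that ATR activates and that restrains entry into division by acting on the CDC25 phosphatases. Its level was 170 and 195 CPM in the GV young control oocytes, 139 and 219.5 CPM in GV aged controls, and 191, 175 and 224.5 CPM in GV NMN oocytes. In MII oocytes it was 344, 508 and 996.5 CPM in young controls, 451, 402 and 580.4 CPM in aged controls, and 283, 525 and 644 CPM with NMN. Every MII oocyte was above every GV oocyte. MII exceeded GV by 3.37-fold in young controls, 2.66-fold in aged controls and 2.46-fold with NMN. Within batches the log2 ratios were 1.32 to 2.44, 1.40 to 1.61 and 1.14 to 1.52. From deposited TPM the NMN value was 0.98, just under the threshold. Age and NMN did not separate Chek1 at either stage.

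The other kinases were low. Atm, the break-sensing kinase, was 0.384 to 5.26 CPM in GV oocytes, and in MII oocytes ran from 0 in 3 groups to 59.2 CPM in MII NMN 1. Atr, which senses stalled replication, was 30.1 and 0 CPM in GV young controls and 0.526 and 42.0 CPM in GV aged controls. The spread within those groups was as wide as the difference between any of them. Chek2 was 0 in GV young controls, 4.38 and 0.737 CPM in GV aged controls, and 10.9 CPM in MII aged control 1.

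Trp63 and Trp53 encode transcription factors that halt or remove damaged cells. Trp63 (p63) was 1.29 and 0 CPM in GV young controls, 8.07 and 11.5 CPM in GV aged controls, and 2.29, 0.271 and 14.6 CPM in GV NMN oocytes. Aged exceeded young by 15.2-fold, from a young group of 5 counts, and the NMN oocytes spanned both. In MII oocytes Trp63 was 0 to 11.4 CPM without separation. Trp53 (p53) ranged from 0 to 22.6 CPM over GV oocytes and from 0.837 to 105.4 CPM over MII oocytes, was highest in MII NMN 1, and was called in no comparison.

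Trp53bp1 and Mdc1 encode scaffolds that gather at breaks. Trp53bp1 was 63.8 and 40.4 CPM in GV young controls, 62.8 and 60.4 CPM in GV aged controls, and 40.0, 36.1 and 12.3 CPM in GV NMN oocytes. NMN oocytes were thus 2.09-fold below aged controls, and the log2 ratio of -1.04 became -0.68 without GV NMN 2-1 and -0.31 on deposited TPM. In MII aged controls it was 113, 131 and 139.8 CPM, 2.08-fold above their GV oocytes, or 0.95 on the log2 scale within batch 1. The annotation places 15% of the exonic bases of Trp53bp1 opposite Tubgcp4, which was at most 3.89 CPM in any oocyte. Mdc1 was the only member called in both NMN comparisons. It was 13.0 and 11.3 CPM in GV aged controls against 5.49, 9.23 and 0 CPM with NMN, and 3.17, 4.50 and 2.54 CPM in MII aged controls against 0 in all 3 MII NMN oocytes. The MII difference was at least 10.2-fold, and both log2 ratios were under 1 in size on deposited TPM (-0.72 in GV and -0.60 in MII).

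**Figure D2:**
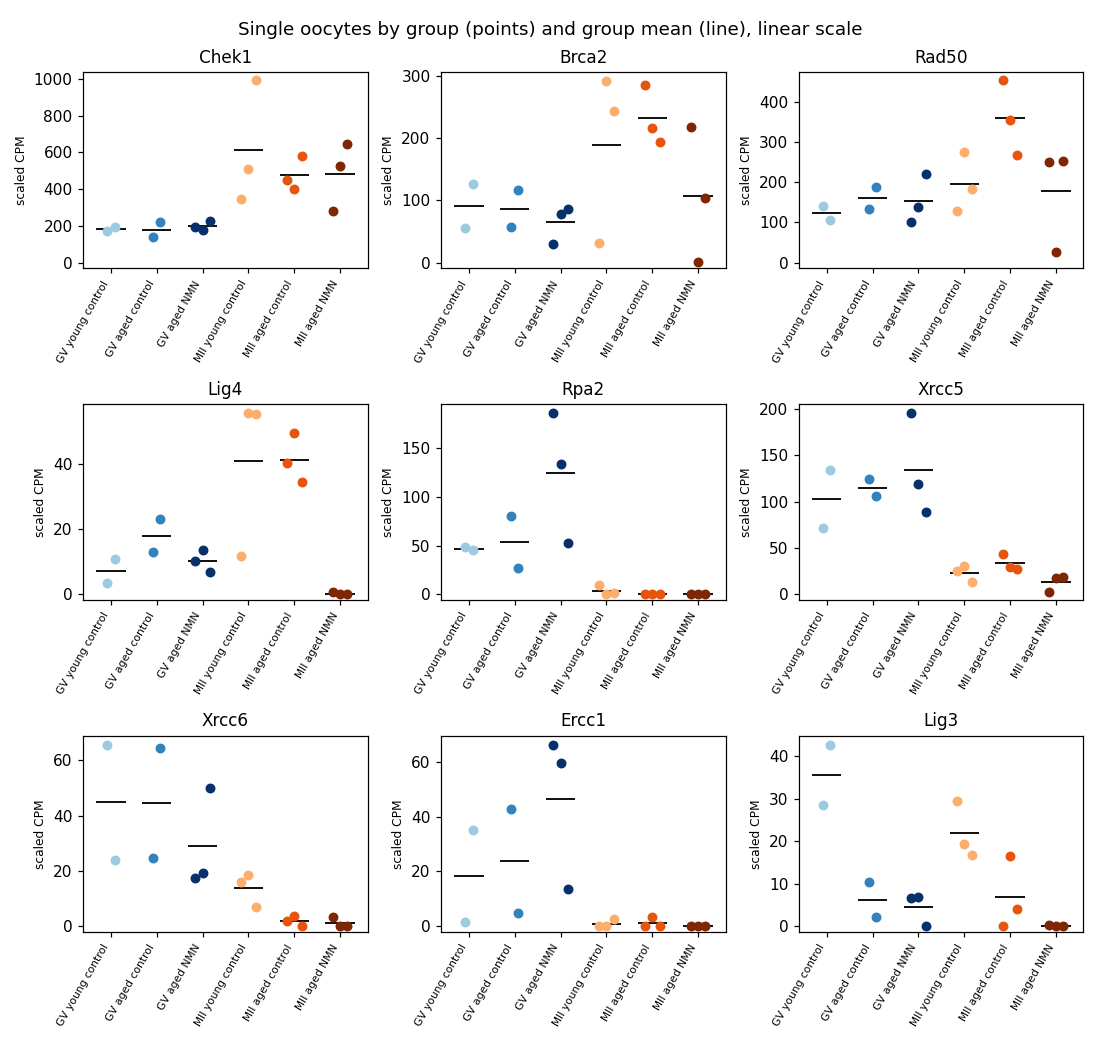
Scaled CPM of selected repair genes in each oocyte (points), by stage and condition, with the group mean as a line. Chek1 spans 139 to 224.5 CPM at the GV stage and 283 to 996.5 CPM at the MII stage, while Rpa2 spans 27.3 to 186 CPM at the GV stage and 0 to 9.41 CPM at the MII stage.

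Recombination transcripts included the abundant Brca2 and Rad50 and many near the floor. Brca2, a tumour suppressor that acts in recombination, was 29.5 to 127 CPM in GV oocytes. In MII oocytes it was 31.8, 292 and 245 CPM in young controls, 286, 216 and 194 CPM in aged controls, and 218, 0.310 and 104 CPM with NMN. The aged controls were 2.68-fold above their GV oocytes, although within batch 2 the log2 ratio was 0.73. MII young control 1 and MII NMN 2 lay far below the other oocytes of their groups. Rad50, a subunit of the complex that holds and trims broken ends, was 134 and 187 CPM in GV and 453, 355 and 268 CPM in MII aged controls, 2.24-fold higher, or 0.52 on the log2 scale within batch 2. It was 251, 26.7 and 252 CPM in MII NMN oocytes, 2.03-fold below the aged controls. Without MII NMN 2 that log2 ratio of -1.02 was -0.51, and within batch 2 it was -0.09.

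Palb2, which links BRCA1 to BRCA2, was 31.2, 21.0 and 25.8 CPM in MII aged controls and 20.1, 0 and 12.8 CPM with NMN, 2.37-fold lower. Without MII NMN 2 the log2 ratio of -1.17 was -0.63. In GV aged controls Palb2 was 8.94 and 12.8 CPM, so MII was 2.39-fold higher, or 0.80 on the log2 scale on TPM. Brca1, the tumour suppressor that promotes recombination, ranged from 7.04 to 73.7 CPM over GV oocytes and from 0 to 69.6 CPM over MII oocytes and was called in no comparison. Its partner Bard1 was 0 and 0.522 CPM in GV young controls, 8.42 and 19.9 CPM in GV aged controls, and 2.97, 7.33 and 3.08 CPM in GV NMN oocytes. Aged exceeded young in pooled counts by 50.9 (95% counting interval 13.8 to 425), and NMN lay 3.17-fold below aged controls. The NMN difference was -0.79 on the log2 scale without GV aged control 2-1.

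Rad51c, a gene of homologous recombination, was 0.257 and 0 CPM in GV young controls and 25.3, 4.98 and 19.6 CPM in MII young controls. The pooled counts, 1 against 248, gave a ratio of 119 (95% counting interval 21.2 to 4731). It was also called higher with age in GV oocytes, where the level rested on GV aged control 1 (15.1 CPM against 0.737 CPM in the other oocyte). Without that oocyte its log2 ratio of 2.98 was 0.62. Rad52, a strand-annealing protein, was 12.6 and 2.46 CPM in GV aged against 1.03 and 0 CPM in GV young controls. Nbn, the third protein of the RAD50 complex, was 19.2, 16.02 and 0.384 CPM in GV and 0 in all MII NMN oocytes, at least 35.4-fold lower in MII, and -0.47 on the log2 scale within batch 2. Rad54l, a motor protein of recombination, was 0 to 27.9 CPM and was called nowhere.

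The subunits of replication protein A, which coats single-stranded DNA, parted at maturation. Rpa2 lies at 132768332 to 132778752 on the plus strand of chromosome 4 (GRCm38). It was 48.1 and 45.4 CPM in GV young controls, 80.7 and 27.3 CPM in GV aged controls, and 186, 134 and 52.7 CPM in GV NMN oocytes. In MII oocytes it was 9.41, 0 and 1.24 CPM in young controls, 0.176, 0.500 and 0 CPM in aged controls, and 0 in all 3 NMN oocytes. No MII oocyte reached a GV oocyte. MII was 13.2-fold lower in young controls, 242-fold lower in the pooled counts of aged controls (571 against 3, 95% counting interval 82.4 to 1177) and at least 371-fold lower with NMN. The calls of Rpa2 were kept without any single oocyte, within each batch, and under size factors, TPM or a larger added value. In aged controls the call was lost when GV aged control 2-2, a library of 5009 counts that was left out, was kept.

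Rpa3 and Rpa1 did not share that pattern. Rpa3 had a range of 93.7 to 381 CPM at the GV stage and 20.1 to 487 CPM at the MII stage and was called in no comparison. With age in GV oocytes Rpa3 came just under the threshold, at a log2 ratio of -0.98 without overlap. It was 381 and 233 CPM in GV young and 114 and 195 CPM in GV aged controls. Rpa1, the large subunit, was 85.8 and 66.3 CPM in GV aged controls and 12.7, 48.3 and 37.4 CPM in MII aged controls, 2.32-fold lower, but -0.81 on the log2 scale without MII aged control 1. In GV oocytes of young controls it was 37.6 and 28.2 CPM, 2.31-fold below aged controls, and 0.99 on the log2 scale without GV aged control 1.

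The promoters of Chek1 and Rpa2, the members with the clearest differences in opposite directions, are shown because both hold a word of E2F type. They are the 300 bases around the start of transcription in RefSeq (GRCm38.p6), 5′ to 3′ on the gene's strand, with the word in capitals. Chek1 is at chr9:36726609-36726908 on the minus strand and Rpa2 at chr4:132768110-132768409 on the plus strand.
Chek1: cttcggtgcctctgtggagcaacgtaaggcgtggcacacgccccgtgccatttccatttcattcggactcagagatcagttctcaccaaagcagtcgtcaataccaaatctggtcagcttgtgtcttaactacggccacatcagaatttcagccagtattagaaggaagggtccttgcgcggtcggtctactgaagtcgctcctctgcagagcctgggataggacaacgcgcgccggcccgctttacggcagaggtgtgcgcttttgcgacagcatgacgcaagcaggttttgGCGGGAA
Rpa2: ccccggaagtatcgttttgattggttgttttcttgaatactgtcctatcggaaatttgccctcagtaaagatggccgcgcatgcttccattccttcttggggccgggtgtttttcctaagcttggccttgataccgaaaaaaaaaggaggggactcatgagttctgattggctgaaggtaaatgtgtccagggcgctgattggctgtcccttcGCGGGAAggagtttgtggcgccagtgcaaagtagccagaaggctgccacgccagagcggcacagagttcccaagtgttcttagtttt
The search covered both strands, with overlaps allowed, and the word in both promoters is GCGGGAA. The other words that counted were GCGCGAA (as a variant), then the variant GCGCCAA, and last the variant GCGGCAA. Of the members kept, 30 had a promoter in the RefSeq table and 19 of these held a word (63.3%), against 19.3% of 9020 genes kept and 10.9% of 27025 genes in the table. The same word stood in the promoters of Chek1, higher in MII oocytes, and Rpa2, lower in them. A match is a run of letters and not a binding site.

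The Ku genes Xrcc5 and Xrcc6 of end joining were lower in MII oocytes in every condition. Xrcc5 encodes KU80, and with KU70 it holds broken ends. It was 71.1 and 134 CPM in GV young, 124 and 106 CPM in GV aged control, and 196, 119 and 88.4 CPM in GV NMN oocytes. The MII values were 25.1, 30.7 and 13.2 CPM, 43.3, 29.3 and 27.6 CPM, and 2.37, 17.99 and 19.1 CPM in the same order of conditions. All MII oocytes lay below all GV oocytes, by 4.46-fold, 3.45-fold and 10.2-fold. In MII oocytes NMN was 2.54-fold below aged controls, or -0.82 on the log2 scale without MII NMN 1.

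Xrcc6, the KU70 subunit, was 65.7 and 24.0 CPM in young GV controls, 24.7 and 64.3 CPM in aged ones, and 17.4, 19.3 and 50.0 CPM in GV oocytes after NMN. In MII oocytes it was 16.1, 18.4 and 6.82 CPM, 1.94, 3.75 and 0 CPM, and 3.16, 0 and 0 CPM. MII was 3.26-fold lower in young controls (-0.76 on the log2 scale without GV young control 1 and -0.58 on TPM), 23.5-fold lower in aged controls and 27.4-fold lower with NMN. Within MII oocytes, aged controls were 7.26-fold below young controls with no overlap. Within batches that log2 ratio was -2.97 to -2.25. Desi1, opposite 7.69% of the exonic bases of Xrcc6, was 0.467 to 12.1 CPM in MII young and 2.25 to 17.1 CPM in MII aged controls.

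Lig4, the ligase that seals joined ends, was 3.60 and 10.96 CPM in GV young, 13.0 and 23.1 CPM in GV aged control, and 10.3, 13.6 and 6.92 CPM in GV NMN oocytes. In MII oocytes it was 11.7, 55.9 and 55.6 CPM in young controls, 40.3, 49.5 and 34.5 CPM in aged controls, and 0.790, 0 and 0 CPM with NMN. MII was 5.64-fold higher in young controls, although the oocytes overlapped under other size factors and on TPM. It was 2.30-fold higher in aged controls, or 0.56 on the log2 scale within batch 2. With NMN it was 47.5-fold lower in pooled counts (113 against 2, 95% counting interval 12.8 to 397). Within MII oocytes NMN lay 188-fold below aged controls in pooled counts (522 against 2, interval 51.8 to 1557), and in both batches the log2 ratio was at or below -5.04.

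**Figure D3:**
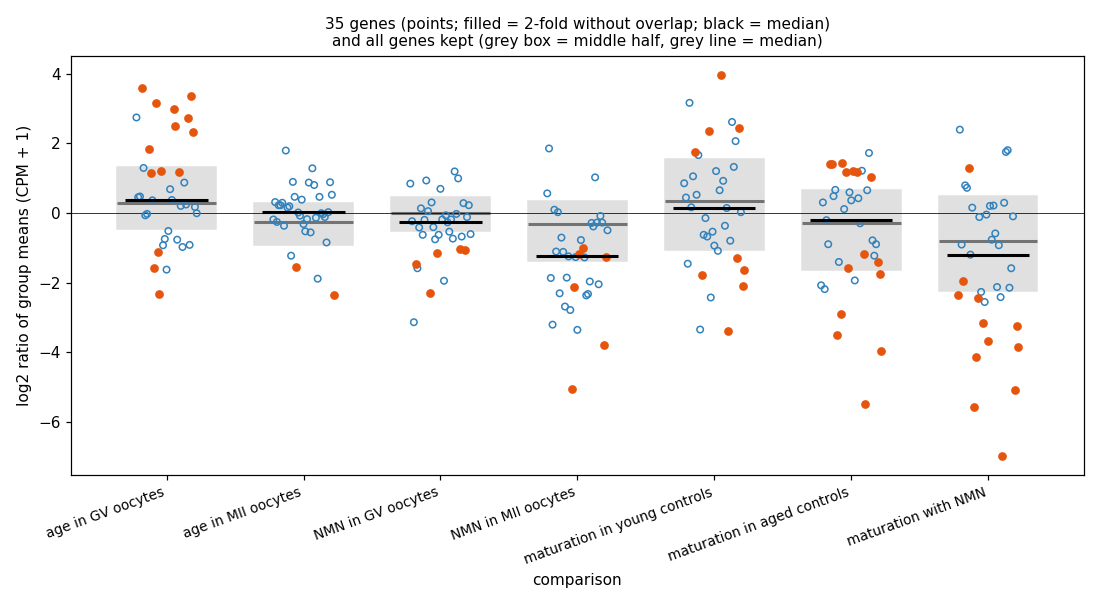
Log2 ratio of group means (y axis, after adding 1 CPM) of the 35 repair genes kept (points, filled where called) in each of the 7 comparisons (x axis), with their median (black line) and the median and middle range of all genes kept (grey line and box). The medians of members and all genes are 0.37 and 0.29 for age in GV, -1.25 and -0.33 for NMN in MII, and -1.20 and -0.82 for maturation with NMN.

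Base excision repair replaces single damaged bases. Xrcc1, its scaffold, was 10.8 and 2.09 CPM in GV young, 35.6 and 36.6 CPM in GV aged control and 16.7, 28.2 and 54.6 CPM in GV NMN oocytes. It was 7.92, 13.0 and 17.8 CPM in MII aged controls and 0 in all 3 MII NMN oocytes. Aged GV oocytes were 5.60-fold above young ones. MII NMN oocytes were at least 38.5-fold below MII aged controls and at least 99.0-fold below GV NMN oocytes. Lig3, the ligase that works with XRCC1, was the only member called with age at both stages. It was 28.6 and 42.8 CPM in GV young against 10.4 and 2.21 CPM in GV aged controls, 5.68-fold lower in aged oocytes. In MII oocytes it was 29.5, 19.5 and 16.7 CPM in young against 0, 16.5 and 4.00 CPM in aged controls, 3.20-fold lower, a call that ended through overlap under other size factors and on deposited TPM. The opposite-strand gene Rffl overlaps 25.1% of the exonic bases of Lig3 and was 14.4 to 41.2 CPM in GV young and 26.1 to 61.6 CPM in GV aged controls.

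Lig1, the replicative ligase, was 48.4 and 33.9 CPM in GV young and 13.7 and 23.1 CPM in GV aged controls, 2.24-fold lower. That log2 ratio of -1.12 was -0.54 within batch 2. In MII aged controls Lig1 was 62.8, 24.5 and 65.7 CPM, higher than in GV with a log2 ratio of 1.42. Under other size factors that ratio was 1.27 and the call was lost. Ung, the uracil glycosylase, was 42.0 and 28.4 CPM in GV and 11.1, 12.1 and 17.8 CPM in MII young controls, 2.58-fold lower in MII, or -0.65 on the log2 scale within batch 2. Apex1, the endonuclease that cuts at lost bases, was 69.3, 79.0 and 32.3 CPM in GV and 0, 27.9 and 5.00 CPM in MII NMN oocytes, 5.49-fold lower. Pip4p1 lies opposite 61.7% of the exonic bases of Apex1 and ranged from 1.60 to 5.43 CPM over GV NMN and from 0 to 36.3 CPM over MII NMN oocytes. Whether the counting used strand is not stated in the sources used here, so the counts of such genes are uncertain.

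Nucleotide excision repair removes bulky lesions. Ercc1, a subunit of the nuclease that cuts beside the lesion, was 43.0 and 4.91 CPM in GV aged controls and 66.3, 59.7 and 13.5 CPM in GV NMN oocytes. It was 0, 3.50 and 0 CPM in MII aged controls and 0 in all 3 MII NMN oocytes, 20.5-fold and at least 139-fold lower, the first of which overlapped on TPM. Xpc, which recognises lesions, was 0.772 and 0 CPM in GV young and 12.5 and 13.8 CPM in GV aged controls. Aged exceeded young by 33.4 in pooled counts (127 against 3, 95% counting interval 11.2 to 164). In GV NMN oocytes Xpc was 4.57, 10.9 and 1.54 CPM, 2.32-fold below aged controls, or -0.69 on the log2 scale without GV NMN 2-1. Ddb1, a damage-binding and ubiquitin ligase subunit, was 14.9 and 39.1 CPM in GV young and 64.9 and 57.7 CPM in GV aged controls, 2.27-fold higher with age, or 0.63 on the log2 scale without GV young control 1.

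Mismatch repair was called in no comparison. Msh6, which recognises mismatches, ranged from 12.1 to 83.5 CPM over GV oocytes and from 0 to 104 CPM over MII oocytes, and Pms2, its downstream nuclease partner, was 0 to 16.5 CPM over all oocytes. Fancd2 and Fanci form the clamp that marks crosslinked DNA, and they took opposite sides with age. In GV oocytes Fancd2 was 38.9 and 62.1 CPM in young against 4.74 and 27.5 CPM in aged controls, 3.13-fold lower, or -0.85 on the log2 scale without GV aged control 1. Fanci was 0 and 4.70 CPM in young against 15.8 and 42.0 CPM in aged controls, 12.3-fold higher. In GV NMN oocytes Fanci was 1.83, 10.6 and 2.69 CPM, 5.74-fold below aged controls. Fancd2 was 7.54, 21.7 and 20.8 CPM in GV and 0 in all 3 MII NMN oocytes, at least 49.8-fold lower. In young controls it was 0, 18.7 and 23.6 CPM in MII, 3.59-fold below GV.

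Over the list, age in GV oocytes gave 11 members higher and 3 lower (31.4% and 8.57%), beside a background of 19.7% and 5.68%. The median log2 ratio of the members was 0.37 and that of all genes kept 0.29. The higher members were Chek2, Trp63, Bard1, Rad51c, Rad52, Rpa1, Lig4, Xrcc1, Xpc, Ddb1 and Fanci. Of the 14 calls, 7 held without any single oocyte, within each batch, with the merged young library moved to batch 2, with other size factors, with TPM and with 5 CPM added, and these were Trp63, Bard1, Rad52, Xrcc1, Lig3, Xpc and Fanci. With GV aged control 2-2, the library of 5009 counts, kept in the aged group, 0 members were called higher and 6 lower, and the medians were -0.19 for the members and -0.11 for all genes. Detection moved with this comparison, since 8804 and 10051 genes had a count in the GV young and 13756 and 11687 in the GV aged control oocytes. At least 3 counts were seen for 29 and 27 members in young and 36 in each aged oocyte. The immune marker sum was 0 to 2.83 CPM in GV young and 9.82 to 237 CPM in GV aged controls, from C1qb and Cd68. The part of detection and of these markers in the result was not tested.

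In MII oocytes age gave 0 members higher and 2 lower, Xrcc6 and Lig3 (0% and 5.71%), with a background of 1.76% and 5.39%. The median of the members was 0.01 and that of all genes -0.27. With other size factors the medians were 0.13 and -0.16. The count of calls was near the background at this stage.

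The NMN comparisons use the same aged control oocytes as the age comparisons, so their values are not separate evidence. In GV oocytes NMN gave 0 members higher and 5 lower (14.3%), Trp53bp1, Mdc1, Bard1, Xpc and Fanci, beside a background of 2.61% and 5.39%. The median was -0.27 against 0.01 for all genes, and it was 0.02 without GV aged control 2-1. Within batch 1 the members' median was -0.12 (all genes 0.06), and within batch 2 it was -0.80 (-0.04). Without GV NMN 2-1, 5 members were called higher and 5 lower, beside 17.8% of all genes in either direction. Without GV NMN 1 or 2, 0 were higher and 7 or 6 lower (11.9% or 14.4% of all genes). Of the 5 calls, that of Fanci alone held in every setting named above other than that with GV aged control 2-2 kept. With that library kept, 0 members were called in either direction, and the medians were 0.20 for the members and 0.49 for all genes. The immune marker sum was 21.5 to 169 CPM in GV NMN and 9.82 to 237 CPM in GV aged control oocytes. GV NMN 2-1 had 24 members with at least 3 counts against 37 and 33 in the other GV NMN oocytes.

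In MII oocytes NMN gave 0 members higher and 6 lower (17.1%), Mdc1, Palb2, Rad50, Xrcc5, Lig4 and Xrcc1, beside a background of 1.31% and 11.3%. The median log2 ratio of the members was -1.25 against -0.33 for all genes. Of the 35 members 30 were lower, and of all 12161 genes kept 7263 were. With groups without a count set at their bound, the medians were -1.27 for the members and -0.32 for all genes. Calls of Lig4 and Xrcc1 held in every setting named above. The MII NMN oocytes held 6400, 5640 and 7704 genes with a count against 8515 to 10744 in MII aged controls. At least 3 counts were seen for 13, 9 and 19 members against 26 to 32. In MII NMN 1 and 2, 37.1% and 22.9% of the members kept reached 3 counts against 43.9% and 38% of all genes kept. In MII NMN 2-1 the shares were 54.3% and 54.9%. Mitochondrial reads were 43.0% and 33.2% in MII NMN 1 and 2 and 6.18% in MII NMN 2-1. The part of detection in the lower values was not tested. Within batch 2, which holds MII NMN 2-1 and 1 aged control, the members' median was -0.42 and that of all genes 0.00.

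**Figure D4:**
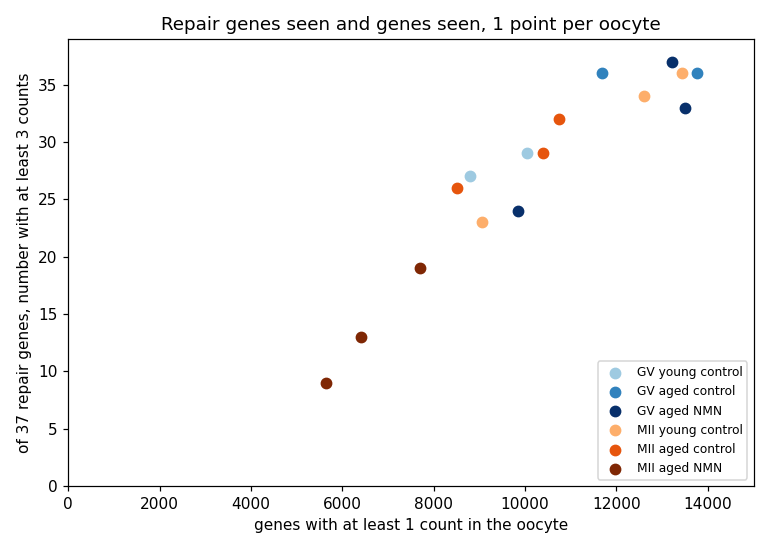
Repair genes with at least 3 counts (y axis, of 37) in each of the 16 oocytes against the number of genes with a count (x axis). The MII NMN oocytes have 9 to 19 members and 5640 to 7704 genes, below every other oocyte, which have 23 to 37 members.

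For maturation, the median log2 ratio of the members was 0.14 in young controls (all genes 0.35), -0.21 in aged controls (-0.29) and -1.20 with NMN (-0.82). With GV aged control 2-2 kept, 7 members were called higher and 0 lower in aged controls, with a median of 0.33. Other size factors moved the median of all genes in young controls to 0.10 and that of the members to -0.22. The NMN median rested on the MII NMN oocytes of batch 1. It was -2.69 within batch 1 and 0.20 within batch 2, where all genes had medians of -1.34 and 0.00. With groups without a count set at their bound, the NMN medians were -1.59 for the members and -0.87 for all genes. Leaving aside the setting with GV aged control 2-2 kept, the calls of Chek1, Rpa2 and Xrcc5 in both controls held in every setting named above. With that library kept, the lower calls of Rpa2 and Xrcc5 in aged controls were lost. Those of Rpa2, Xrcc5, Xrcc6, Lig4, Xrcc1, Ercc1 and Fancd2 with NMN held in every setting named above. The Apex1 call with NMN did too, but it was lost within batch 2 with MII NMN 2 placed there (log2 ratio -0.93).

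Of 137 other genes of the same pathways, 128 were kept. Their shares are read against the backgrounds of each comparison given above. With maturation 31 were called higher and 19 lower in young controls (24.2% and 14.8%, background 16.6% and 15.4%). In aged controls 18 and 27 were called (14.1% and 21.1%, background 8.32% and 25.9%), and with NMN 6 and 30 (4.69% and 23.4%, background 3.34% and 26.8%). With age 22 were higher and 5 lower in GV oocytes (17.2% and 3.91%, background 19.7% and 5.68%), and 1 and 7 in MII oocytes (0.781% and 5.47%, background 1.76% and 5.39%). NMN gave 4 and 5 in GV (3.12% and 3.91%, background 2.61% and 5.39%) and 4 and 18 in MII oocytes (3.12% and 14.1%, background 1.31% and 11.3%). Cdkn1a, the p53 target p21, was 5.60 ± 1.76 CPM in MII aged controls and 22.9 ± 13.7 CPM in MII NMN oocytes (SD, n = 3 oocytes each). In MII young controls Cdkn1a was 26.2 ± 32.3 CPM (n = 3), with a range of 5.17 to 63.4 CPM. Pms1, a mismatch repair gene, was 137 ± 47.7 CPM in MII aged controls and 2.39 ± 4.15 CPM with NMN, 57.4-fold lower.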

How the data were processed

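Single-oocyte RNA was sequenced in 18 libraries. Per the submitters' processing notes, reads were handled with Cufflinks and TopHat2 2.1.1 and with Trim Galore 0.4.5 and FastQC 0.11.8, and the builds named are mm10 and GRCm38. The tool that made the tables is not given in the sources used here. Per the file headers, each deposited table holds expected counts, which were not normalised, and TPM, which the authors scaled by length and library. Expected counts were rounded.

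The tables of GV young controls 1 and 2-1 did not differ in any gene, so they count as 1 library, placed in batch 1. Counts that were not whole made up 14.5% of its detected genes, within the 11.9 to 14.6% of the batch 2 libraries used and below the 19.5 to 29.0% of the other batch 1 libraries. If it belongs to batch 2, no GV young control is left in batch 1, and the batch 1 values for age in GV and for maturation in young controls compare across batches. GV aged control 2-2, with 5009 counts, was left out. Batch was read from the titles, and MII NMN 2, whose title gives only batch 2, was taken for oocyte 2 of batch 1. In R 4.3.3, edgeR 4.0.16 filtered genes (filterByExpr, minimum count 10) and gave the TMM factors behind the CPM. Size factors of DESeq2 1.42.0, deposited TPM, 5 CPM added, no filter, within-batch values and each oocyte left out served as alternatives. Tables and figures used Python 3.11.15, pandas 2.3.3, numpy 2.4.6, scipy 1.17.1 and matplotlib 3.10.9. Counting intervals are exact 95% binomial ones of pooled counts. The code for ratios and calls was run on simulated counts that held counting error alone. They held no spread between oocytes, so they do not show how often such calls arise in these data. Members and lists were chosen with earlier results of these data known.

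Members named are those called whose higher group had at least 10 CPM, and 15 members on a set list are named whatever their values. Rad52, Rad54l, Rpa3, Ogg1 and Pms2, and Mdc1 in MII oocytes, lie outside this rule and were added after their values were seen. Other pathway genes were named from up to 3 a direction with at least 10 CPM, and Cdkn1a and Pms1 were picked from these. Some genes that met this rule are not reported here.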

Additional observations from a re-analysis of the deposited data

Results flagged for a closer look

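The maturation difference of Lig4 had opposite directions between conditions, with every MII oocyte above every GV oocyte in both controls and below in the NMN group. The log2 ratio of MII over GV was 2.34 for young controls, 1.16 for aged controls and -3.16 for NMN oocytes. The difference between the conditions was not tested. The MII NMN oocytes held 2 counts of Lig4 in all and had fewer genes with a count than the other oocytes.

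Xpc differed in the same way between the controls. Its log2 ratio of MII over GV was 2.43 in young controls and -0.90 in aged controls, with no overlap between the oocytes of either pair of groups. This difference was not tested either, and the GV young control oocytes held 3 counts of Xpc in all.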

How the results depend on the processing

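No paired analysis was possible because no test over oocytes was made and the labels name no animals. The median log2 ratio of the members moved by less than the spread between oocytes in 47 of 49 other settings and in 36 of 37 that left out an oocyte, but it changed sign in 16 of these 86. Maturation with NMN was -2.69 within batch 1 and 0.20 within batch 2, with a range of -2.29 to -1.07 over oocytes left out. With GV aged control 2-2 (5009 counts) kept, the medians turned to -0.19 for age in GV, 0.20 for NMN in GV and 0.33 for maturation in aged controls. Age in MII, with a median near 0, took the other sign in 5 settings. No called named member changed sign, and values of named members moved by more than the spread in 90 of 981 other settings and 12 of 726 that left out an oocyte.

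The count of called members, of 35, is given with the share of all genes called under the same setting, since fewer oocytes a side overlap less often by construction. Within batch 1 it was 25 for age in GV (55.4%), 5 for age in MII (17.5%), 20 for NMN in MII (41.7%), and 18, 24 and 25 for maturation in young controls, aged controls and with NMN (50.2%, 53% and 59.7%). Within batch 2 it was 16 for age in MII (60.4%), 18 for NMN in GV (43%), 13 for NMN in MII (37.3%), and 24 and 23 for maturation in young and aged controls (67.5% and 58.9%). The directions differed between batches in 2 NMN comparisons. For NMN in GV, 5 were higher and 2 lower within batch 1 (19%), and 2 and 16 within batch 2. For maturation with NMN, 2 were higher and 23 lower within batch 1, and 8 and 10 within batch 2 (55.8%). With MII NMN 2 in batch 2, NMN in MII gave 16 (30.9%). With the merged library in batch 2, maturation in young controls gave 21 (57.8%). Deposited TPM gave 1 for age in MII (5.99%) and 3 for NMN in GV (6.93%), and 5 CPM added gave 2 for NMN in GV (3.11%). With GV aged control 2-2 kept, age in GV gave 0 higher and 6 lower (9.88% of all genes in either direction), NMN in GV 0 (4.99%), and maturation in aged controls 7 higher and 0 lower (10.9%). Leaving out an oocyte gave 13 to 20 for age in GV (32.5 to 46.1% of all genes), 2 to 5 for age in MII (10.5 to 19.1%), 6 to 14 for NMN in GV (11.9 to 31.8%) and 5 to 14 for NMN in MII (15.7 to 32.3%). For maturation it gave 11 to 17 in young controls (35.3 to 49.6%), 16 to 21 in aged controls (39.5 to 47.4%) and 12 to 20 with NMN (32.2 to 45.6%). The cause was not tested. Depth limits members near the floor of 3 counts.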
